A study of Homo sapiens with 21 samples.

Results

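Histone H3 acetylated at lysine 27 (H3K27ac) was mapped in the lines SKMEL-147 and A375-GFP, each a human melanoma cell line with 1 library, and the lists of enriched regions were set against each other. The SKMEL-147 list held 58855 regions on numbered chromosomes and X, and the A375-GFP list held 139985. Every region entered the comparison, and a region counted as shared when it overlapped a region of the other line by at least 1 bp. The A375-GFP list was also held to its 58855 regions of highest −log10 q, which is called equal length here. These are 2 of 21 samples of the series, and 15 samples came with region lists. The series concerned HOXD13, a limb homeobox factor, which was silenced or overexpressed in melanoma lines.

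SKMEL-147 cells carry no construct in their label. A375-GFP is read as A375 cells with a GFP vector, the counterpart of A375 cells with HA-tagged HOXD13. Per the protocol, which covers all lines, cells grew for 72 h and doxycycline was present (1 µg/ml) or absent, without a statement of which samples received it. No library of these lines had a replicate under the same label, so line, construct, treatment and library cannot be told apart, and no test between the lines was possible. A375 cells with shNTC, read as a non-targeting hairpin, had 2 H3K27ac libraries, and these show how far another A375 library lies from A375-GFP. Each line is a single culture model grown without the other cells of a tumour.

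H3K27ac is laid down by the acetyltransferases p300 and CBP and marks active promoters and enhancers. Melanoma cells lie on a range of states, from melanocytic cells that depend on MITF and SOX10 and make pigment, through neural crest-like cells with NGFR, to undifferentiated cells that use AP-1 and TEAD factors and express AXL and EGFR. SKMEL-147 is known as an NRAS-mutant line and A375 as a BRAF-mutant line, and both are compared here as less differentiated lines.

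Promoter sequences are printed for genes of the lists described here whose 300-base window was acetylated in 1 line only in the lists as deposited. The 4 with the most extreme ratio of acetylated length were taken on each side, so they are examples and do not represent all such windows. Windows run from 250 bases before to 50 bases after a start and come from RefSeq, build GRCh38.p14. Of 308 list genes with a window that was considered, 6 had one acetylated in SKMEL-147 only and 110 had one acetylated in A375-GFP only. The windows of SKMEL-147 were those of IL1B at chr2:112836730-112837029 on the minus strand, IL6 at chr7:22726950-22727249 on the plus strand, GDNF at chr5:37835778-37836077 on the minus strand and EGFR at chr7:55109589-55109888 on the plus strand. IL1B and IL6 are inflammatory cytokines, GDNF is the ligand of the RET receptor complex and EGFR is the epidermal growth factor receptor. Capitals mark matches on either strand to AP-1 (TGANTCA), CRE (TGACGTCA), an E-box (CACGTG), TEAD (GGAATG), NF-kB or a TATA box (TATAAA).
IL1B: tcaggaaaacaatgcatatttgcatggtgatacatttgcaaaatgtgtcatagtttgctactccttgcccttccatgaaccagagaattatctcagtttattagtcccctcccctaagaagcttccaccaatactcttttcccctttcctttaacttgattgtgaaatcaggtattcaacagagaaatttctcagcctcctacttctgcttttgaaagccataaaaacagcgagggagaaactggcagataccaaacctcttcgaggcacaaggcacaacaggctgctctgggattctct
IL6: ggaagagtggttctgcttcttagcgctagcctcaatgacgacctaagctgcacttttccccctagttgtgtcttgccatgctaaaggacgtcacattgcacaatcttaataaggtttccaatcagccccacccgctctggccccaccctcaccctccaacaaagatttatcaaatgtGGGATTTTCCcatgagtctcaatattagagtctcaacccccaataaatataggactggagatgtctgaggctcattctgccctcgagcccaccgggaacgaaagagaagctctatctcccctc
GDNF: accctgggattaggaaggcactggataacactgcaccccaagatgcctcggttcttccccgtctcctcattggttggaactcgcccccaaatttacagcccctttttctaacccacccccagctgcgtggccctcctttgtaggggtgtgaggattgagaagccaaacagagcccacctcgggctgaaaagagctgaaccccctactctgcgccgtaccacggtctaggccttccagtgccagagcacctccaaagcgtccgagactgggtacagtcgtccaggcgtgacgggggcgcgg
EGFR: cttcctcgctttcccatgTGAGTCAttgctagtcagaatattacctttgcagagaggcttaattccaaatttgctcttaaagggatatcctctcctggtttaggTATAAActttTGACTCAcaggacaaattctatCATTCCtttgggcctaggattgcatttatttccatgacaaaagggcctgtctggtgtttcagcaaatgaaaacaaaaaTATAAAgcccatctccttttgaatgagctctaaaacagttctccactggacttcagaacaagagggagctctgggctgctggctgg

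The EGFR window lies inside the gene, at an internal start, and so does the GDNF window, as that gene ends at chr5:37840041. Counted within 1 kb of any of its starts, GDNF had a region in both lines, at equal length and as deposited. The EGFR window held AP-1 matches beginning 232 and 136 bases before its start, and the IL6 window held an NF-kB match beginning 73 bases before its start. The IL1B and GDNF windows held none of the motifs. The IL1B window was acetylated in both A375-shNTC replicates too, while the IL6, GDNF and EGFR windows were acetylated in neither.

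The windows of A375-GFP were those of COL4A1, a basement membrane collagen, at chr13:110307108-110307407 on the minus strand, TYRO3, a receptor tyrosine kinase related to AXL, at chr15:41559722-41560021 on the plus strand, TFAP2B, a neural crest transcription factor, at chr6:50818621-50818920 on the plus strand, and ERBB2, the partner receptor of ERBB3, at chr17:39687844-39688143 on the plus strand.
COL4A1: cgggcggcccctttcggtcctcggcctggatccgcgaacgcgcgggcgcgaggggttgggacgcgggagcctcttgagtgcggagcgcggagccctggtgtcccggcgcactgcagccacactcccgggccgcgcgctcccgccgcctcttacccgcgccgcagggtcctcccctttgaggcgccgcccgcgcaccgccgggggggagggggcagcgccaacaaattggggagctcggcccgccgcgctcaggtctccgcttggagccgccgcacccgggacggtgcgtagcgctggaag
TYRO3: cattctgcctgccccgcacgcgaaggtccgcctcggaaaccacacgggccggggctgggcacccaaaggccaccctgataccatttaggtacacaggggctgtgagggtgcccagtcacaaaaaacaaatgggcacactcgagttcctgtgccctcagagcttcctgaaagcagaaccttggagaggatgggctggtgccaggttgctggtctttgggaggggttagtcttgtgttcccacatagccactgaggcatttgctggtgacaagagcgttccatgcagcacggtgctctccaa
TFAP2B: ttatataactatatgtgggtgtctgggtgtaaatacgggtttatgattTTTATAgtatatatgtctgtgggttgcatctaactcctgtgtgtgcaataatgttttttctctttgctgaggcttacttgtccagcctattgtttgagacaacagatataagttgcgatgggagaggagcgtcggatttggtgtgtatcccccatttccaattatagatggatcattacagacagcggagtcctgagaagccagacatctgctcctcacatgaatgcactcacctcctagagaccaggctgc
ERBB2: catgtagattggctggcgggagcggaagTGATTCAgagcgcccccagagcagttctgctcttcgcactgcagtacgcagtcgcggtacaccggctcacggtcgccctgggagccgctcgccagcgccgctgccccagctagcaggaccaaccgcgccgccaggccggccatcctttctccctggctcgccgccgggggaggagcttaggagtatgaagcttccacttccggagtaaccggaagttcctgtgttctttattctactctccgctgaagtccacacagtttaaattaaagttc

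The TYRO3 and TFAP2B windows lie inside their genes, which begin at chr15:41559212 and chr6:50818355, so these starts are internal too. The ERBB2 window held an AP-1 match beginning 222 bases before its start, and the TFAP2B window held a TATA box match. The COL4A1 and TYRO3 windows held none of the marked motifs. All 4 of these windows were acetylated in A375-shNTC replicate 1, and 3 of them, all but TYRO3, in replicate 2. The COL4A1, TYRO3 and ERBB2 windows were open in the ATAC list of SKMEL-147 as well as of A375-GFP, although SKMEL-147 had no H3K27ac region there. The GC content was 76.7% in COL4A1, 58.3% in TYRO3, 43.0% in TFAP2B and 60.7% in ERBB2. In the windows of SKMEL-147 it was 42.3% in IL1B, 49.3% in IL6, 59.7% in GDNF and 42.0% in EGFR.

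About 1 in 3 regions of either line was found in the other at equal length. Of the SKMEL-147 regions 36.3% overlapped a region of A375-GFP and 63.7% (37495) lay in SKMEL-147 only (Wilson 95% interval 63.3 to 64.1%). Of the A375-GFP regions 33.5% overlapped a region of SKMEL-147 and 66.5% (39135) lay in A375-GFP only (66.1 to 66.9%). These intervals, like all others here, cover counting error only. Lists from A375 itself overlapped more. A375-GFP regions were found in A375-shNTC at 68.1% for replicate 1 and 67.8% for replicate 2, the regions of these replicates in A375-GFP at 54.6% and 54.9%, and the shNTC replicates shared 86.0% with each other. The lists as deposited gave 48.7% of SKMEL-147 regions as shared and 21.3% of A375-GFP regions, with 30204 regions in SKMEL-147 only and 110162 in A375-GFP only. Their depth is unknown, because they hold no read counts.

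The share rose with the strength of a region within its own list, apart from small dips between neighbouring classes (classes 4 and 5 of SKMEL-147, classes 1 and 2 of A375-GFP). Sorted by −log10 q, the authors' own value, into 10 classes, 20.8% of the weakest and 67.3% of the strongest SKMEL-147 regions were shared. For A375-GFP the shares were 18.4% in the weakest class and 66.9% in the strongest. The strongest class of SKMEL-147 began at a −log10 q of 14.4 and that of A375-GFP at 36.5, so the classes rank regions within a list and do not match them between lists. Strong regions were also wider, with a median of 2686 bp in the top class against 316 bp in the lowest of SKMEL-147, which gives them more room to overlap.

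**Figure D1:**
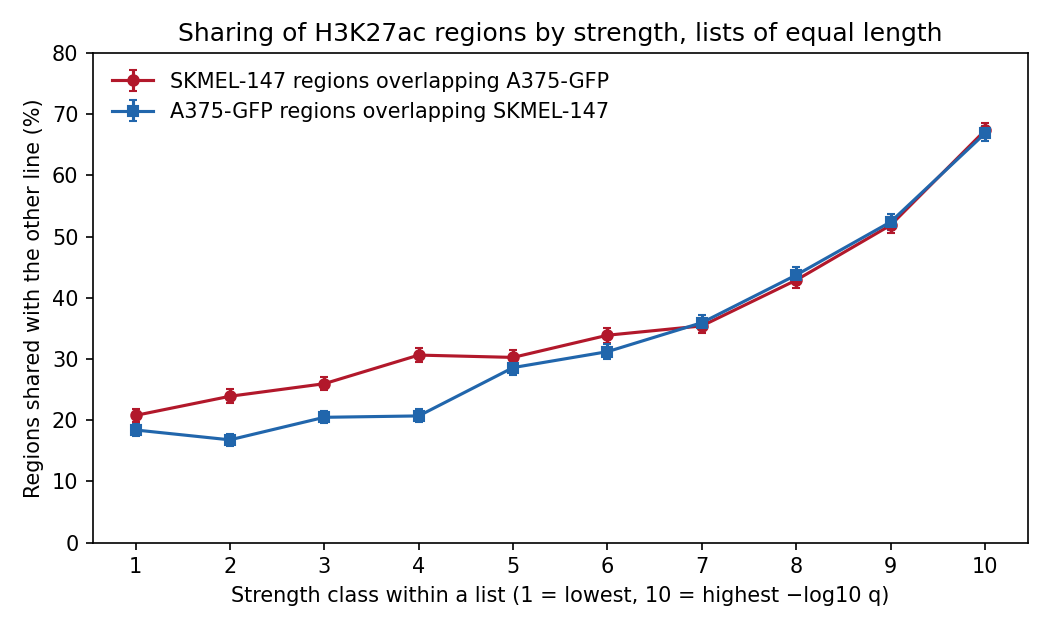
Percentage of H3K27ac regions shared with the other line (y axis) by strength class within a list (x axis, 1 lowest to 10 highest −log10 q), for SKMEL-147 (circles) and A375-GFP (squares), lists of equal length, with Wilson 95% intervals. The shares climb from 20.8% to 67.3% in SKMEL-147 and from 18.4% to 66.9% in A375-GFP.

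At 42115 regions per list, the length of the SKMEL-5 list, SKMEL-147 shared 36.8% of its regions with A375-GFP, 27.5% with SKMEL-5 and 18.5% with 501mel, the pigmented lines of the series. A375-GFP shared 42.0% with SKMEL-5, 34.7% with SKMEL-147 and 26.1% with 501mel. SKMEL-147 regions thus overlapped A375-GFP most often, while A375-GFP regions overlapped SKMEL-5 more often than SKMEL-147. The regions found in only 1 of the lines differed in the same way: 16.5% of those in SKMEL-147 only and 37.0% of those in A375-GFP only were found in 501mel or SKMEL-5.

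Regions of SKMEL-147 only were mostly distal. Just 6.48% had a midpoint within 2 kb of a gene end, 55.3% lay in a gene and 38.2% lay between genes. Of the regions in A375-GFP only, 22.5% lay near a gene end, 54.7% in a gene and 22.8% between genes. Of the SKMEL-147 regions near a gene end 62.9% were shared, against 30.3% of those between genes. The order was the other way round in A375-GFP, with 29.2% shared near a gene end and 40.8% between genes.

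Open chromatin, mapped by ATAC-seq, was set beside the acetylated regions at equal length. Here the ATAC lists were used in full, with 163102 regions in SKMEL-147 and 118398 in A375-GFP. Of the regions in SKMEL-147 only, 41.8% were open in SKMEL-147 and 25.4% in A375-GFP, and 56.3% were open in neither. Of the regions in A375-GFP only, 36.8% were open in SKMEL-147 and 50.6% in A375-GFP, and 45.8% in neither. With the SKMEL-147 ATAC list held to the length of A375-GFP ATAC, the shares open in SKMEL-147 were lower. They were 39.1% for regions in SKMEL-147 only and 31.2% for regions in A375-GFP only. These shares moved when both H3K27ac lists were cut by strength. The cut also redefined which regions counted as unshared, because weaker regions of the other line were left out. Strong regions were wider too, with a median of 2686 bp in the strongest SKMEL-147 class against 316 bp in the weakest. The parts of strength, width and the cut in these shares were not tested. Among regions reaching a −log10 q of 10, 66.2% of regions in SKMEL-147 only were open in A375-GFP, and 62.8% of those in A375-GFP only were open in SKMEL-147. Among the 20000 strongest regions the shares were 53.9% and 66.0% in the same order. Near gene ends the regions in A375-GFP only were open at 67.8% in SKMEL-147 and 72.1% in A375-GFP. Between genes these shares stood further apart, at 38.2% in SKMEL-147 and 65.5% in A375-GFP. With the SKMEL-147 ATAC list held to the length of A375-GFP ATAC, the SKMEL-147 shares were 64.0% near gene ends and 31.0% between genes. Shared SKMEL-147 regions were open at 64.6% in SKMEL-147 and 63.8% in A375-GFP.

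The A375-shNTC lists, used at full length, held part of the regions found in SKMEL-147 only. Of the regions in SKMEL-147 only at equal length, 25.3% overlapped regions of both shNTC replicates and 67.1% of neither, while 19.4% (7291) overlapped weaker regions of A375-GFP as deposited. Of the 30204 regions in SKMEL-147 only as deposited, 18.6% overlapped both replicates and 74.7% neither. Of the regions in A375-GFP only, 62.6% overlapped both and 27.5% neither. Against all 3 A375 lists as deposited, 22574 SKMEL-147 regions (38.4%) had no overlap.

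**Figure D2:**
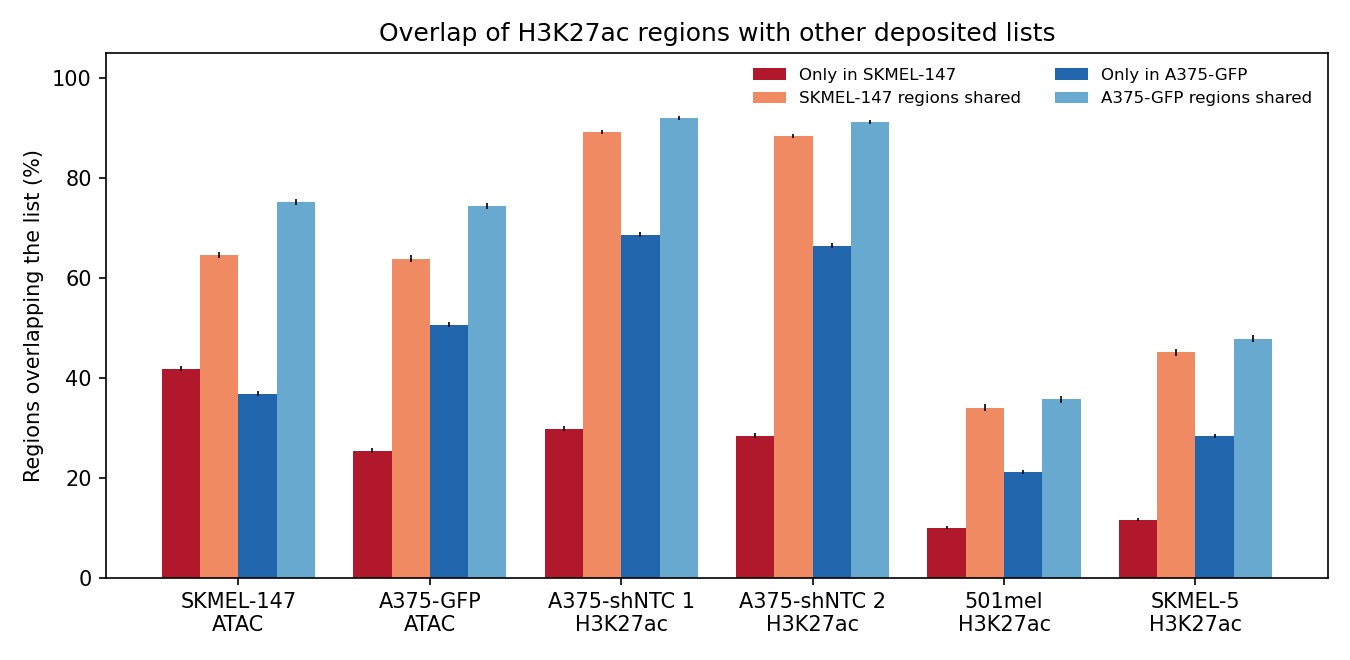
Percentage of H3K27ac regions (y axis) that overlap each of 6 other deposited lists (x axis), for regions in SKMEL-147 only, shared SKMEL-147 regions, regions in A375-GFP only and shared A375-GFP regions at equal length. Bars start at 0 and carry Wilson 95% intervals; regions in SKMEL-147 only overlap the pigmented lines 501mel (9.99%) and SKMEL-5 (11.6%) least.

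The strongest regions found in 1 line only differed in kind. The 10 in SKMEL-147 only with the highest −log10 q included 3 narrow ones of 269 to 409 bp: at MAP3K15, a kinase gene on the X chromosome (chrX:19452075-19452343, fold 5.67), and a pair on chromosome 1 within LOC102724250 (chr1:629664-630056 and chr1:631884-632292). Their enrichment of 2.58 to 5.67 over the caller's background was low for their rank, and none was listed in A375-shNTC. The other 7, among them regions in CYP4Z1, a cytochrome P450 gene (chr1:47104986-47111775, fold 27.8), in BMAL2, a circadian clock factor (chr12:27341037-27345510, fold 29.6), near XCR1, a chemokine receptor, and near TMTC3, CCDC200, LOC107987004 and LOC124907867, were listed in both shNTC replicates. The XCR1 and TMTC3 regions were also listed in A375-GFP as deposited, below the equal-length limit. The 10 strongest in A375-GFP only all reappeared in both shNTC replicates, and all but the TFAP2B region were open in SKMEL-147. They included promoters or gene bodies of SLBP, which binds histone mRNA, RNASEK, NFATC2, a calcium-regulated transcription factor with a single region of 17348 bp (chr20:51418879-51436226), PFDN4, a chaperone subunit, MARF1, CMC2, INAVA, UFSP2 and, at some distance, GPBP1, and TFAP2B itself (chr6:50816815-50828200, fold 53.7).

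Promoters were acetylated less often in SKMEL-147. Within 1 kb of a start, 21.6% of 15812 genes with a promoter entry had a region in SKMEL-147, against 44.9% in A375-GFP at equal length. The shNTC libraries stood at 57.8% and 56.9%, SKMEL-5 at 49.0% and 501mel at 23.5%. Promoters acetylated in SKMEL-147 only numbered 497 (3.14%), those in A375-GFP only 4188 (26.5%) and those in both 2911. Of the promoters acetylated in A375-GFP only, 94.8% were open in SKMEL-147 and 97.8% in A375-GFP, and 93.6% were acetylated in both shNTC replicates. Of the 497 promoters acetylated in SKMEL-147 only, 67.2% were acetylated in both shNTC replicates too. With A375-GFP as deposited 261 promoters were in SKMEL-147 only, and 49.4% of these were acetylated in both shNTC replicates.

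The gap widened with GC content. In the class of lowest GC, 10.6% of genes had an acetylated promoter in SKMEL-147 and 10.5% in A375-GFP. For class 6 of 10, counted from low GC, the shares were 26.7% in SKMEL-147 and 54.3% in A375-GFP, and in the class of highest GC 13.8% in SKMEL-147 and 50.5% in A375-GFP. Openness differed far less, at 71.1% of genes in SKMEL-147 and 75.7% in A375-GFP over all classes. The part of GC content in the difference at promoters was not tested.

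**Figure D3:**
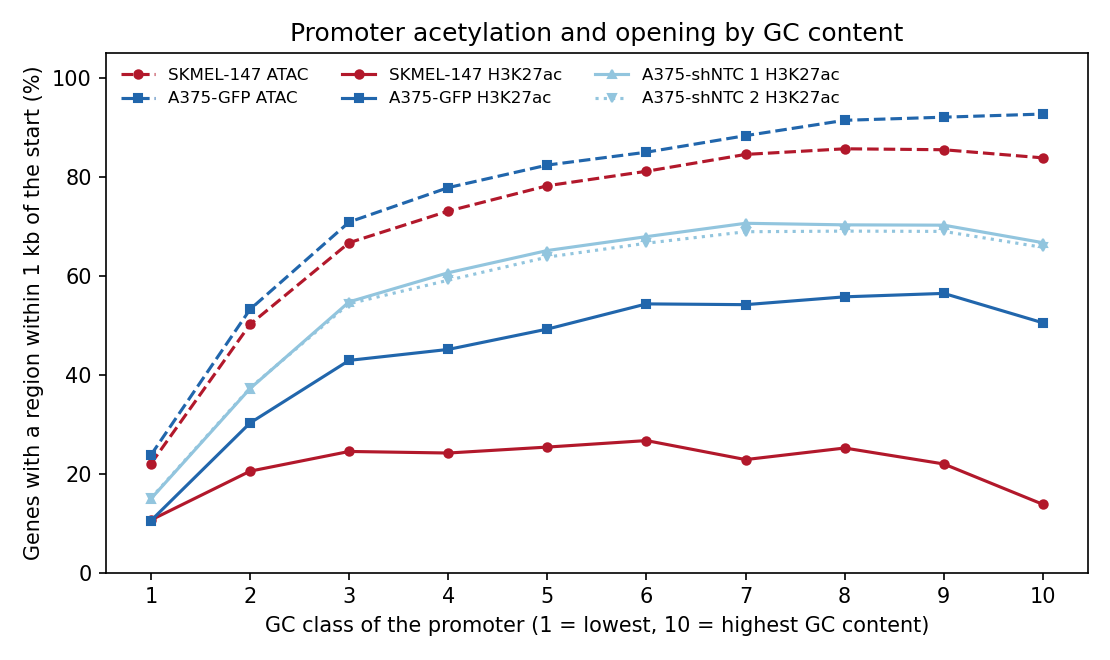
Percentage of genes with a region within 1 kb of the start (y axis) by GC class of the promoter (x axis, 1 lowest to 10 highest), for ATAC (dashed) and H3K27ac (solid or dotted) of SKMEL-147, A375-GFP and the A375-shNTC replicates. H3K27ac of SKMEL-147 stays between 10.6% and 26.7% in every class, while its ATAC shares run near those of A375-GFP.

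Motif content differed with promoter class. AP-1 matches stood in 10.9% of the 726 promoter windows acetylated in SKMEL-147 only (Wilson 95% interval 8.82 to 13.4%) and in 4.07% of the 5749 acetylated in A375-GFP only (3.59 to 4.61%), against 6.15% of all 22132 windows. A TATA box stood in 12.0% of windows in SKMEL-147 only, 4.49% in A375-GFP only and 9.46% of all. A GC box (GGGCGG) stood in 45.6% in SKMEL-147 only, 70.8% in A375-GFP only and 56.3% of all, and the median GC content was 58.2% in SKMEL-147 only and 66.3% in A375-GFP only. TEAD matches stood in 14.9% of windows in SKMEL-147 only, 9.86% in A375-GFP only and 12.2% of all. E-boxes stood in 5.37% in SKMEL-147 only, 10.4% in A375-GFP only and 8.34% of all. CRE matches stood in 3.72% in SKMEL-147 only, 2.96% in A375-GFP only and 2.26% of all, and NF-kB matches in 11.4% in SKMEL-147 only, 14.4% in A375-GFP only and 12.7% of all. Windows of several starts of 1 gene overlap, GC content differs between the classes, and its part in the motif shares was not tested.

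To describe genes, the acetylated length of each gene with 10 kb on either side was taken, and the log2 ratio of SKMEL-147 over A375-GFP was formed after adding 500 bp to both, which understates the change of genes with little acetylation. A gene was called at a ratio of 4-fold or more. At equal length 834 of 19974 protein-coding genes (4.18%) had more acetylated length in SKMEL-147 and 4122 (20.6%) had more in A375-GFP. As deposited the counts were 497 (2.49%) for SKMEL-147 and 6105 (30.6%) for A375-GFP. At equal length the regions still covered 52.3 Mb in SKMEL-147 and 74.3 Mb in A375-GFP, with median widths of 499 and 886 bp. With A375-GFP held to its 28767 strongest regions, the covered lengths were equal. Then 1366 genes were called for SKMEL-147 and 2656 for A375-GFP, and the median over all genes was 0.00. The median over all genes at equal length was −0.19, a value that includes 5671 genes with no region in either list. Over the 14303 genes with a region it was −1.13, and most genes of the lists below have a region, so their medians stand beside that value too. Genes with no region cannot be called but count among all genes. The shares of 4.18% and 20.6% would therefore be higher over genes with a region alone. Against the shNTC replicates the median over all genes stood at −1.02 and −0.97. Of the 834 genes 241 were also called against both shNTC replicates, and of the 4122 genes 3394. Calls against all 3 A375 lists thus came to 1.21% of genes for SKMEL-147 and 17.0% for A375.

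The label of both lines as less differentiated held for pigment genes. At 42115 regions per list, 16 pigment and melanosome genes summed to 19.7 kb in SKMEL-147 and 24.0 kb in A375-GFP, against 231 kb in SKMEL-5 and 270 kb in 501mel. MLANA, a melanosomal antigen, had 0 kb in both SKMEL-147 and A375-GFP, against 13.9 kb in SKMEL-5 and 13.2 kb in 501mel. The 10 melanocyte lineage factors summed to 44.2 kb in SKMEL-147 and 88.8 kb in A375-GFP, against 187 kb in SKMEL-5 and 214 kb in 501mel. SOX10 went against the label in A375-GFP, with 27.96 kb against 18.7 kb in SKMEL-5 and 21.6 kb in 501mel. In SKMEL-147 it had 10.8 kb. The 24 undifferentiated and invasive genes summed to 330 kb in SKMEL-147 and 368 kb in A375-GFP, against 95.02 kb in SKMEL-5 and 25.1 kb in 501mel. The neural crest-like genes summed to 54.8 kb in SKMEL-147 against 207 kb in A375-GFP, 185 kb in SKMEL-5 and 151 kb in 501mel. Single long genes made up much of these sums: SOX5, which was not called, gave 30.7 kb in SKMEL-147 and 108 kb in A375-GFP, and SOX6 gave 67.6 kb in SKMEL-5 and 75.3 kb in 501mel. Genes of 5 other cell types summed to 3.09 to 19.5 kb per list of 12 genes in SKMEL-147 and 8.34 to 30.8 kb in A375-GFP. Of their 60 genes 5 were called for SKMEL-147 and 9 for A375-GFP at equal length, beside 4.18% and 20.6% of all genes.

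Most melanocyte lineage factors had a region in both lines, apart from IRF4, at 0 kb in both, and TBX2, at 0 kb in SKMEL-147. SOX10, which drives melanocyte and glial fate, had 11.2 kb in SKMEL-147 and 27.96 kb in A375-GFP (log2 ratio −1.28). MITF, the master regulator of pigment cells, had 6.81 kb in SKMEL-147 and 23.5 kb in A375-GFP (−1.71), and PAX3, which acts upstream of MITF, had 5.89 kb and 5.46 kb. Of the 10 factors only TBX2, a T-box repressor of senescence, was called, with 0 kb in SKMEL-147 against 6.84 kb in A375-GFP and 2.60 and 3.67 kb in shNTC. The list median was −0.41, and this single call stands beside 20.6% of all genes called for A375-GFP. The 16 pigment genes (list median 0.00) held 3 calls for A375-GFP, near the 20.6% of all genes. These were MC1R, the melanocortin receptor, with 0.463 kb in SKMEL-147 and 5.76 kb in A375-GFP, GPNMB, a melanosomal glycoprotein, and CAPN3. CAPN3, a calpain protease, had 0 and 0.664 kb in shNTC.

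Of 19 neural crest-like genes 9 were called for A375-GFP and 1 for SKMEL-147, with a list median of −1.78. Of all genes 20.6% were called for A375-GFP and 4.18% for SKMEL-147. ERBB3, a neuregulin receptor of the glial lineage, had 0.278 kb in SKMEL-147 against 23.8 kb in A375-GFP and 17.6 and 16.5 kb in shNTC (log2 ratio −4.97). TFAP2B had 0 kb in SKMEL-147 against 12.1 kb in A375-GFP and 9.43 and 8.68 kb in shNTC. NGFR, the low-affinity nerve growth factor receptor, had 0 kb in SKMEL-147 against 4.34 kb in A375-GFP and 2.04 and 2.43 kb in shNTC. EDNRB, the endothelin receptor of migrating melanoblasts, had 1.25 kb in SKMEL-147 against 9.06 kb in A375-GFP. The other calls for A375-GFP were RXRG, a retinoid receptor, SOX2, AQP1, S100B and FOXD3, and RXRG was at 0 kb in both shNTC replicates. GDNF went the other way, with 9.66 kb in SKMEL-147 against 1.01 kb in A375-GFP and 0 kb in both shNTC replicates (2.76). As deposited A375-GFP had 2.41 kb at GDNF, which was then not called (1.80).

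Most undifferentiated and invasive genes had a region in both lines, apart from ROR2, at 0 kb in SKMEL-147, and TNFRSF11B, at 0 kb in A375-GFP. Of 24 genes 2 were called for SKMEL-147 and 1 for A375-GFP (list median −0.32), beside 4.18% and 20.6% of all genes. With only regions reaching a −log10 q of 10 the counts were 1 for SKMEL-147 and 9 for A375-GFP (median −1.42), and against each shNTC replicate 1 and 4. NRG1, the neuregulin that binds ERBB3, had 40.9 kb in SKMEL-147 against 0.696 kb in A375-GFP and 5.32 and 4.88 kb in shNTC (log2 ratio 5.11). The ligand gene NRG1 was thus the longer in SKMEL-147, and the receptor gene ERBB3 in all 3 A375 libraries. EGFR had 36.7 kb in SKMEL-147 against 8.21 kb in A375-GFP (2.09), and with 20.7 and 19.2 kb in shNTC the call was lost. TGFBI, a matrix protein induced by TGF-beta, had 32.2 kb in SKMEL-147 and 9.24 kb in A375-GFP (1.75). AXL, a receptor tyrosine kinase of invasive melanoma, was close, with 17.6 kb in SKMEL-147 and 16.1 kb in A375-GFP, as was CD44, the hyaluronan receptor, with 63.6 kb and 72.8 kb in the same order. ITGA5, the fibronectin receptor subunit, had 5.21 kb in SKMEL-147 against 23.7 kb in A375-GFP and was the call for A375-GFP.

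Among 25 receptor tyrosine kinases, 1 was called for SKMEL-147, EGFR, and 6 for A375-GFP, with a list median of −0.85. These shares lie near the 4.18% of all genes called for SKMEL-147 and 20.6% for A375-GFP. At equal covered length 4 were called for SKMEL-147 and 5 for A375-GFP (median 0.00). IGF1R, the insulin-like growth factor receptor, had 26.6 kb in SKMEL-147 against 169 kb in A375-GFP. TYRO3 had 0 kb in SKMEL-147 against 13.6 kb in A375-GFP, and ERBB2 had 0 kb against 8.23 kb. NTRK3, a neurotrophin receptor, had 0.449 kb in SKMEL-147 and 7.88 kb in A375-GFP, but only 1.37 and 1.95 kb in shNTC. Calls against all 3 A375 lists held for ERBB3, ERBB2 and TYRO3, and IGF1R, NTRK3 and PDGFRB lost theirs against both shNTC replicates.

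Genes of PD-1 ligands and cytokines were among the calls for SKMEL-147. Of 17 immune checkpoint genes 3 were called for SKMEL-147 and 1 for A375-GFP (list median 0.00), beside 4.18% and 20.6% of all genes. CD274, which encodes PD-L1, had 8.39 kb in SKMEL-147 against 0 kb in A375-GFP and 0.693 and 0.592 kb in shNTC (log2 ratio 4.15). Its neighbour PDCD1LG2, which encodes PD-L2, had 7.79 kb in SKMEL-147 against 0 kb in A375-GFP and 3.14 and 3.07 kb in shNTC. The windows of these genes lie close together and can share regions. SIGLEC15 was the last call for SKMEL-147, and TNFSF9, the ligand of the costimulatory receptor 4-1BB, that for A375-GFP, with 0 kb in SKMEL-147 and 2.22 kb in A375-GFP.

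Of 22 chemokines and cytokines 6 were called for SKMEL-147 and 1 for A375-GFP at equal length (list median 0.26), beside 4.18% and 20.6% of all genes. These counts moved with the lists used. Against shNTC replicate 1 they were 1 for SKMEL-147 and 3 for A375 (median −0.24), and against replicate 2 they were 1 and 2 (median −0.47). Where only regions reaching a −log10 q of 10 were kept, and among the 20000 strongest regions, 1 was called for SKMEL-147 and 0 for A375-GFP. IL6 had 3.12 kb in SKMEL-147 against 0 kb in A375-GFP and in both shNTC replicates (2.85). IL1B had 9.90 kb in SKMEL-147 against 0 kb in A375-GFP, with 3.64 and 3.13 kb in shNTC, and CCL2, which attracts monocytes, had 3.37 kb in SKMEL-147 against 0 kb in A375-GFP, with 1.81 kb in both shNTC replicates. CXCL2, CXCL5 and CXCL8, ligands of neutrophil receptors, had 1.59 to 2.08 kb in SKMEL-147 and 0 kb in A375-GFP, but 2.20 to 3.86 kb in shNTC, where their ratio turned. The 0 kb holds for A375-GFP at equal length, which leaves out its weaker regions. As deposited A375-GFP had 1.38 kb at CXCL2, 0.246 kb at CXCL5 and 1.01 kb at CXCL8, and none of them was called (0.46, 1.49 and 0.65). CSF1, the macrophage growth factor, had 0 kb in SKMEL-147 and 3.11 kb in A375-GFP. Against all 3 A375 lists CD274 and IL6 remained called among the genes of both lists for SKMEL-147.

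**Figure D4:**
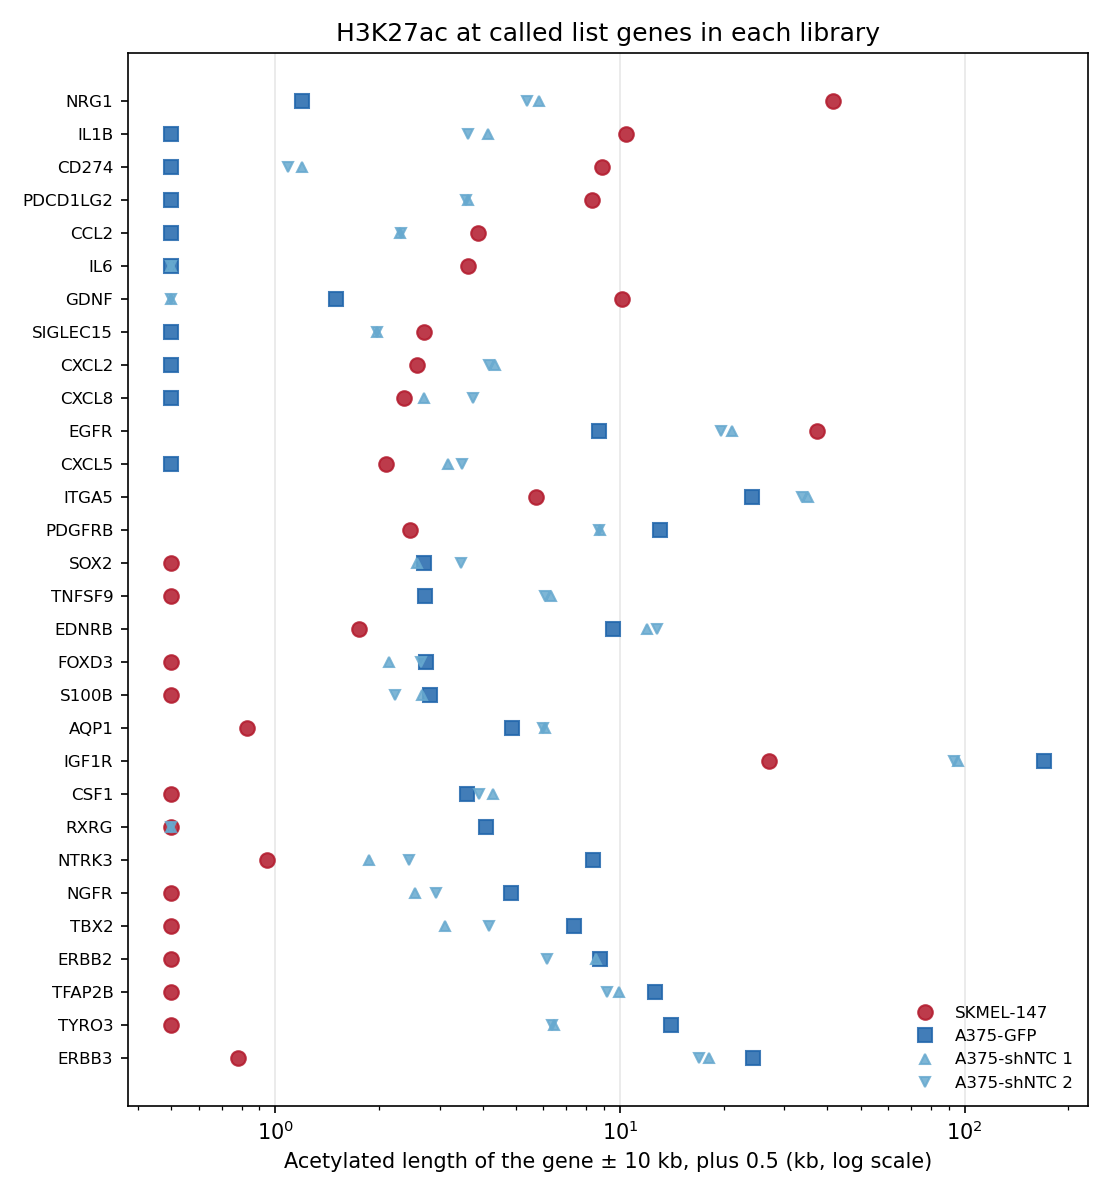
Acetylated length of each called gene of 6 lists with 10 kb on either side, plus 0.5 kb (x axis, log scale), in SKMEL-147 (red circles), A375-GFP (blue squares) and the A375-shNTC replicates (light triangles), sorted from NRG1 (log2 ratio 5.11) to ERBB3 (−4.97). For CXCL2, CXCL5 and CXCL8 the triangles lie to the right of SKMEL-147, and for EGFR between both lines.

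Of 26 angiogenesis genes 4 were called for SKMEL-147 and 3 for A375-GFP at equal length (list median −0.24), beside 4.18% and 20.6% of all genes in the same order. With A375-GFP as deposited, and against each shNTC replicate, 1 was called for SKMEL-147 and 6 for A375. NRP1, a co-receptor of VEGF and semaphorins, had 58.5 kb in SKMEL-147 against 13.5 kb in A375-GFP and 18.0 and 18.9 kb in shNTC (2.07), and the call was lost against shNTC (1.68 and 1.60). VEGFC, the lymphatic growth factor, had 7.13 kb in SKMEL-147 and 0.621 kb in A375-GFP, but 7.48 and 7.13 kb in shNTC. PDGFB, a ligand for pericytes, had 1.60 kb in SKMEL-147 and 0 kb in all 3 A375 lists at equal length. As deposited A375-GFP had 0.236 kb there, and PDGFB was not called (1.51). PDGFA had 2.23 kb in SKMEL-147 and 0 kb in A375-GFP, and was not called against shNTC (0.98 and 1.01). With A375-GFP as deposited PDGFA was the call for SKMEL-147 (2.45). VEGFB had 0.298 kb in SKMEL-147 against 12.9 kb in A375-GFP, and FLT1, a VEGF receptor, and EPHB4, an ephrin receptor of veins, were the other calls for A375-GFP. Among 12 class 3 semaphorins and plexins (list median −1.26), SEMA3F and PLXND1 were called for A375-GFP, and PLXND1 had 0.694 kb in SKMEL-147 and 21.2 kb in A375-GFP.

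Matrix genes held 7 calls of 26 for A375-GFP and 1 for SKMEL-147 (list median −0.52), shares near the 20.6% and 4.18% of all genes. Against all 3 A375 lists 0 were called for SKMEL-147 and 5 for A375. COL4A1 had 0.258 kb in SKMEL-147 against 26.8 kb in A375-GFP, and its divergent neighbour COL4A2 had 11.7 kb in SKMEL-147 against 85.9 kb in A375-GFP. At 32.8 and 34.3 kb in shNTC, COL4A2 was not called there (−1.45 and −1.51). LOXL4, a collagen cross-linking enzyme, had 3.58 kb in SKMEL-147 and 28.2 kb in A375-GFP, and LOXL3, of the same family, 4.84 kb and 26.4 kb. LUM, a proteoglycan, was the call for SKMEL-147, with 4.32 kb against 0.267 kb in A375-GFP and 1.23 and 1.56 kb in shNTC, and was not called with A375-GFP as deposited (1.92) or against shNTC (1.48 and 1.22).

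Other groups held no call for SKMEL-147, which took 4.18% of all genes, and their calls for A375-GFP stand beside 20.6% of all genes, which is about 3 genes in 15. MAPK feedback genes had 5 calls of 16 for A375-GFP (list median −1.32), led by SPRED3 with 0 kb in SKMEL-147 and 4.34 kb in A375-GFP, ETV4, an ETS factor downstream of ERK, with 2.18 kb and 24.8 kb, and SPRY4, an inhibitor of receptor signalling, with 3.97 kb and 28.1 kb. EMT factors had 3 of 12 (median −0.11), among them CDH1, which encodes E-cadherin, with 0 kb in SKMEL-147 and 5.78 kb in A375-GFP, PRRX1 and SNAI1. PRRX1 and SNAI1 were not called against either shNTC replicate. TGF-beta genes had 3 of 15 (median −0.62), with TGFB1 at 0.025 kb in SKMEL-147 and 6.18 kb in A375-GFP, and SKI, a repressor of SMADs, at 3.12 kb and 37.99 kb. AP-1 and TEAD genes had 2 of 20 (median −0.80), JUNB and TEAD4, and TEAD4 was not called against shNTC replicate 2. Adenosine genes had 3 of 15 (median −0.72), ADA, AHCY and ADORA3, and antigen presentation genes outside the MHC had 3 of 15 (median −0.62), CALR, PDIA3 and CIITA. AHCY, ADORA3 and CIITA lost their call against both shNTC replicates. Cell cycle genes had 2 of 15 (median −0.35), E2F1 and CDK4. Among housekeeping genes (list median −0.96), GAPDH, a glycolytic enzyme, had 3.36 kb in SKMEL-147 and 17.2 kb in A375-GFP. ACTB, which encodes beta-actin, had 1.29 kb in SKMEL-147 and 7.54 kb in A375-GFP, was not called against the shNTC replicates, and turned round in 500-bp summit windows.

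**Figure D5:**
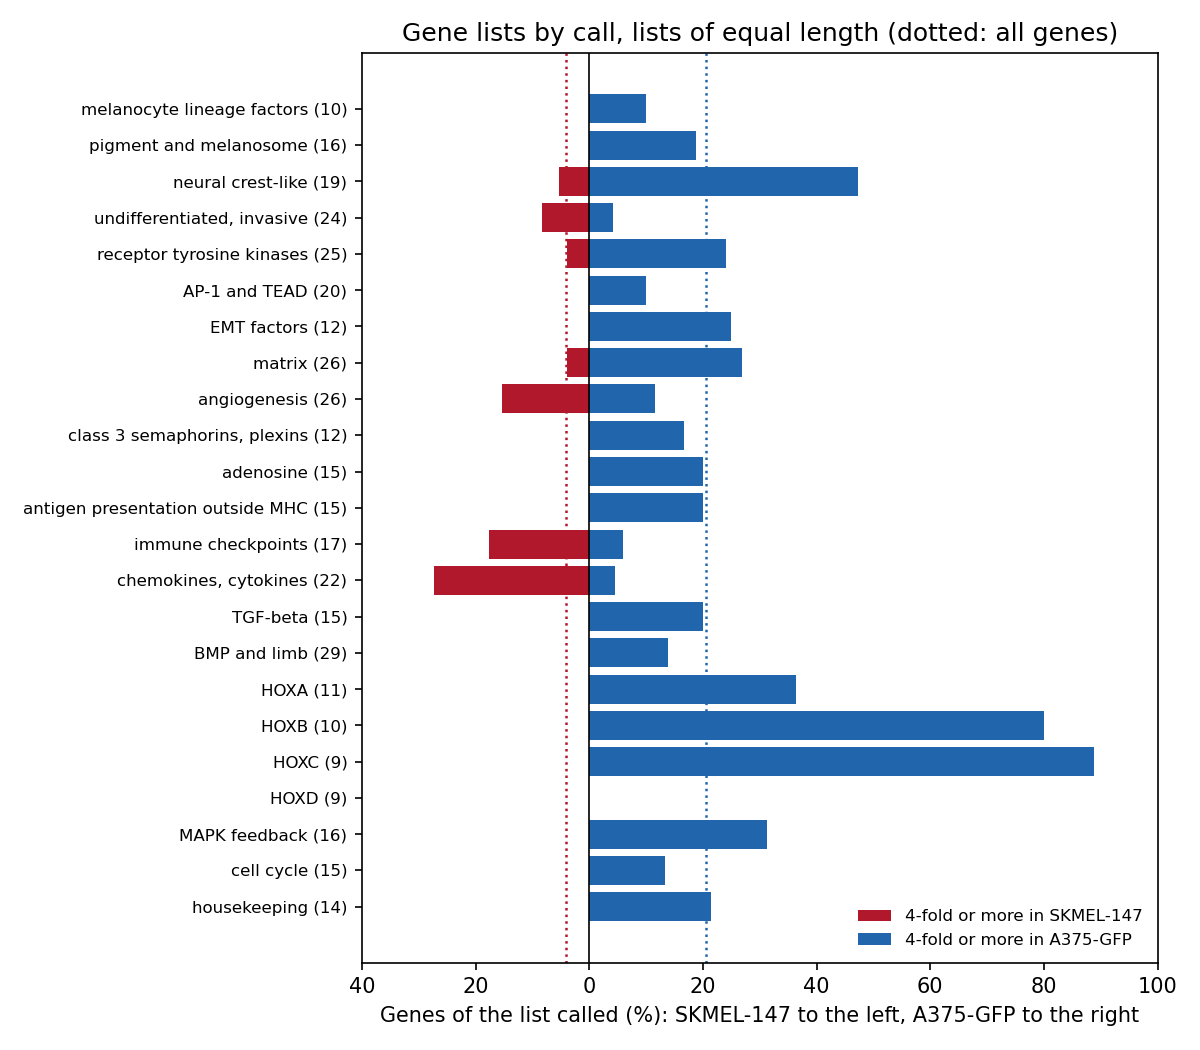
Percentage of the genes of each list (number of genes in brackets) called at 4-fold or more for SKMEL-147 (red, to the left) or A375-GFP (blue, to the right), lists of equal length; dotted lines mark 4.18% and 20.6% of all genes. HOXB and HOXC reach furthest to the right, and chemokines and cytokines furthest to the left.

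The HOX clusters carried little acetylation in SKMEL-147. HOXA had 9.01 kb in SKMEL-147 (8.41% of the cluster) and 29.6 kb in A375-GFP (27.7%). HOXB had 5.70 kb in SKMEL-147 (2.85%) and 56.0 kb in A375-GFP (27.9%), and HOXC had 1.75 kb in SKMEL-147 (1.49%) and 32.1 kb in A375-GFP (27.4%). In HOXD the lengths were 0.653 kb in SKMEL-147 and 3.58 kb in A375-GFP. Calls for A375-GFP covered 4 of 11 HOXA genes (HOXA7, HOXA9, HOXA10 and HOXA11), 8 of 10 HOXB genes, 8 of 9 HOXC genes and none of 9 HOXD genes. They stand beside 20.6% of all genes. Neighbouring windows overlap, so these counts are not independent. The list medians were −1.47 for HOXA, −2.95 for HOXB, −2.44 for HOXC and −1.46 for HOXD. Open chromatin was alike, with 8.67% of HOXB in SKMEL-147 and 10.7% in A375-GFP, and 12.0% of HOXC in SKMEL-147 and 15.7% in A375-GFP. HOXD13 (chr2:176087487-176095944) had 0 kb in SKMEL-147 against 1.31 kb in A375-GFP and 0 kb in both shNTC replicates, and its nearest H3K27ac region in SKMEL-147 lay 40229 bp away, although an ATAC region lay in the gene in both lines. Among 29 BMP and limb genes (list median 0.00), 4 were called for A375-GFP, TBX4, MEIS1, FGF8 and EN1, a smaller share than the 20.6% of all genes.

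Over all genes, the 10 with the largest ratio for SKMEL-147 were SRGAP2B, MPP7, FTO, FOXP1, NOTCH2NLB, NRG1, TSPAN5, NOTCH2NLA, SRGAP2C and SH3RF2. SRGAP2B, SRGAP2C, NOTCH2NLA and NOTCH2NLB are near-identical copies of human-specific duplicated genes, whose reads can be split between copies. Their 15.5 to 28.8 kb in SKMEL-147 stood against 0 kb in A375-GFP but 26.8 to 52.6 kb in shNTC, so these 4 are uncertain. FOXP1, a forkhead repressor, had 33.6 kb in SKMEL-147 against 0.291 kb in A375-GFP and 3.13 and 3.56 kb in shNTC, and its open length was 24.4 kb in SKMEL-147 and 4.92 kb in A375-GFP. MPP7, a polarity scaffold, had 21.5 kb in SKMEL-147 against 0 kb in A375-GFP and 7.18 and 6.82 kb in shNTC. TSPAN5, a tetraspanin that guides ADAM10, had 24.4 kb in SKMEL-147 and 0.254 kb in A375-GFP. SH3RF2, a ubiquitin ligase, had 15.4 kb in SKMEL-147, 0 kb in A375-GFP and at most 0.271 kb in shNTC.

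On the side of A375-GFP the 10 were TGFA, EBF3, ITGA9, TIMP3, GRAMD1B, SMARCA4, ABHD17C, ZNF362, MARF1 and RRBP1, all called against both shNTC replicates as well. TGFA, a ligand of EGFR, had 0 kb in SKMEL-147 against 74.8 kb in A375-GFP and 15.0 and 18.6 kb in shNTC (−7.24). EBF3, a neural transcription factor, had 0 kb in SKMEL-147 and 44.5 kb in A375-GFP, and its open length was 2.44 kb in SKMEL-147 and 11.6 kb in A375-GFP. TIMP3, a metalloproteinase inhibitor, had 0 kb in SKMEL-147 and 41.9 kb in A375-GFP, and SMARCA4, the ATPase of the BAF remodelling complex, 0 kb and 36.5 kb, with 14.5 and 17.7 kb in shNTC. The open length in SKMEL-147 was 2.96 kb at TIMP3 and 2.54 kb at SMARCA4.

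Regions joined within 12500 bp formed 21518 domains in SKMEL-147 and 20278 in A375-GFP, and 53.7% of the SKMEL-147 domains and 52.3% of the A375-GFP domains held no region of the other line. By acetylated length, the longest in SKMEL-147 only lay near LOC124907867, with 30.5 kb acetylated over 103 kb, and LOC124907854, with 25.8 kb over 64.4 kb. The LOC124907854 domain lies in a 1-Mb bin where A375-GFP had no region. Next came MECOM, a stem cell transcription factor, with 25.4 kb over 63.1 kb, ADAMTS6, a matrix protease, with 24.98 kb, and FOXP1 with 18.8 kb. The others were SH3RF2 with 17.3 kb, copies at NOTCH2NLA and NOTCH2NLB, and domains near CFAP20DC and CCDC200. The longest in A375-GFP only lay at TGFA with 78.4 kb over 127 kb, in a gene-poor stretch 1005722 bp from PABPC4L with 44.8 kb, and at TIMP3 with 41.9 kb, followed by ABHD17C, EBF3, HDAC1, SMARCA4, COL2A1, AFAP1L2 and MTFR1L. All 10 of these reappeared in both shNTC replicates. Of the 10 in SKMEL-147 only, 8 were also listed in both shNTC replicates, MECOM and ADAMTS6 among them, while FOXP1 and SH3RF2 were listed in replicate 2 only. ADAMTS6, CFAP20DC and SH3RF2 also had a region in A375-GFP as deposited.

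Libraries differed in ways that bear on these lengths. The highest −log10 q were lower in SKMEL-147, where 9927 regions reached 10, against 28370 in A375-GFP. At equal length A375-GFP regions were also wider and covered more. At equal covered length the list medians were −2.53 for HOXB, −2.29 for HOXC and −1.76 for neural crest-like genes. They were −0.64 for MAPK feedback genes, −0.08 for class 3 semaphorins and plexins and 0.00 for HOXD. Across chromosomes the ratio of SKMEL-147 to A375-GFP regions ran from 0.407 on chromosome 19 to 1.63 on chromosome 14. In 17 bins of 1 Mb A375-GFP had no region while both shNTC replicates had at least 10, and these bins held 0.386% of SKMEL-147 regions. Of the 834 genes with more length in SKMEL-147, 281 had no A375-GFP region as deposited, and 28 of these had at least 5 kb in both shNTC replicates. The part of these differences in the results was not tested.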

How the data were processed

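Enriched regions of H3K27ac, ATAC-seq and HA-tagged HOXD13 libraries were used as the authors deposited them. The submitters' processing notes name MACS2, Bowtie2, Trim Galore, deepTools and SAMtools, and the build hg38; versions, settings and control libraries are not given in the sources used here. Each deposited list gives a score, a fold enrichment over the caller's background (a ratio), and a −log10 p-value and −log10 q-value, all computed by the authors and used only to describe, rank or filter regions within a list. Peaks were deposited per sample. The lists hold no read counts, so depth is unknown.

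Only numbered chromosomes and X were used, which left out 36 SKMEL-147 regions and none of A375-GFP. Regions were compared by overlap of 1 bp, as deposited and with A375-GFP held to 58855 regions. Acetylated length was summed over 19974 RefSeq genes (GRCh38.p14) with 10 kb on either side, 500 bp was added to both lengths, and a gene was called at 4-fold; no p-value was computed. Promoter windows and motifs came from RefSeq, for 15812 genes. Openness within 1 kb of a start and the open length of genes used the SKMEL-147 ATAC list held to 118398 regions, the length of A375-GFP ATAC. The 28 gene lists hold 432 genes, all matched, 1 of them through an older symbol; 1 housekeeping gene is not reported here. Members and lists were chosen with earlier results of these data known. Named genes were HOXD13, members of the melanocyte and undifferentiated lists, up to 4 called genes each way of the other lists, the 10 largest ratios each way, and the genes at the 10 strongest regions and 10 longest domains of each line; genes named beyond that were chosen after their values were seen. The MHC held 9.05% of chromosome 6 regions in SKMEL-147 and 7.81% in A375-GFP, against 2.14% and 2.04% in shNTC. Scripts used Python 3.11.15, NumPy 2.4.6, pandas 2.3.3 and SciPy 1.17.1 and were tested on simulated regions with known overlap. Intervals are Wilson 95% intervals. Alternatives changed list length, thresholds, overlap, windows, the added length and the A375 library.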

Additional observations from a re-analysis of the deposited data

How the results depend on the processing

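No paired analysis was possible because each line had 1 library and no test was run. Values follow for the SKMEL-147 regions found in SKMEL-147 only, the A375-GFP regions found in A375-GFP only, the share of regions in SKMEL-147 only that were open in A375-GFP, and the share of regions in A375-GFP only that were open in SKMEL-147. They were 51.3%, 78.7%, 21.4% and 21.7% as deposited, 73.1%, 53.5%, 28.5% and 53.3% at equal covered length, 49.7%, 79.4%, 66.2% and 62.8% for regions with −log10 q from 10 upwards, and 65.1%, 64.8%, 53.9% and 66.0% for the 20000 strongest regions. They were 66.4%, 69.0%, 26.3% and 37.7% with an overlap of 50% of the shorter region, and 61.5%, 63.9%, 32.5% and 43.9% with regions joined within 1000 bp. With shNTC replicate 1 in place of A375-GFP they were 53.9%, 63.7%, 15.2% and 58.8%, and with replicate 2 54.2%, 63.6%, 15.2% and 57.6%. Summit windows of 500 bp moved 3 of them, to 77.4%, 77.5% and, for regions in A375-GFP only open in SKMEL-147, 34.7%. Among settings chosen after seeing the data, leaving out regions near gene ends gave 65.8%, 67.3%, 24.7% and 26.6%, and A375-GFP regions found in both shNTC replicates gave 66.8%, 58.0% and, for those open in SKMEL-147, 51.4%; leaving out the bins without A375-GFP regions moved none.

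Genes with more length in SKMEL-147 numbered 497 as deposited, 1366 at equal covered length, 345 and 344 with shNTC replicates 1 and 2, 1994 at 2-fold and 1329 with 200 bp added. Genes with more in A375-GFP numbered 2656 at equal covered length, 2052 in summit windows and 7590 at 2-fold. A375 calls outnumbered SKMEL-147 calls under every setting run. Over 130 named genes, 1607 values kept their call, 320 moved and 23 turned round; the cause was not tested. With shNTC replicate 1 the log2 ratio turned for VEGFC (−0.066), CXCL2 (−0.75), CXCL5 (−0.60), CXCL8 (−0.19), SRGAP2B (−0.85), NOTCH2NLB (−0.93), NOTCH2NLA (−0.78) and SRGAP2C (−1.39). With replicate 2 it turned for VEGFC (−0.0015), CXCL2 (−0.69), CXCL5 (−0.74), CXCL8 (−0.66), TP63 (−0.17), FAP (−0.094), SRGAP2B (−0.86), NOTCH2NLB (−0.94), NOTCH2NLA (−0.75) and SRGAP2C (−1.52). Summit windows turned LOXL4 (0.49), SPRY4 (1.81) and ACTB (0.42), leaving out gene-end regions turned HOXC11 (0.56), and a window of 50 kb turned KRT14 (0.25). Unknown depth limits every absence in the SKMEL-147 list.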

Other observations

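The genes called against all 3 A375 lists, ranked by the smallest of the 3 ratios, were looked up after their values were seen. For SKMEL-147 they began with STK39, a kinase that regulates ion transport, with 13.1 kb in SKMEL-147 and 0 kb in A375-GFP and both shNTC replicates. CFAP251, a cilium protein, had 12.9 kb in SKMEL-147, and BASP1, a membrane protein of growing axons, 11.8 kb. SORCS3, a sorting receptor, had 11.8 kb in SKMEL-147 and MME, a membrane peptidase, 9.61 kb. These genes had 0 kb in the 3 A375 lists at equal length. As deposited A375-GFP had 1.98 kb at CFAP251 (log2 ratio 2.43) and 0 kb at BASP1, SORCS3 and MME. BASP1 was also the more open in SKMEL-147, with 4.10 kb against 0.859 kb in A375-GFP, as was MME, with 5.73 kb against 2.36 kb. KRTAP4-9 and KRTAP4-16, members of a multigene hair keratin-associated family whose copies can share reads, had 12.7 and 11.8 kb in SKMEL-147 and are uncertain.

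For A375 the list began with MEOX2, a mesodermal homeobox factor, with 0 kb in SKMEL-147 against 26.3 kb in A375-GFP and 33.5 and 35.6 kb in shNTC. Its open length was 0.713 kb in SKMEL-147 and 4.14 kb in A375-GFP. GRAMD1B, a sterol transporter, had 1.06 kb in SKMEL-147 against 126 kb in A375-GFP, and IGF2BP1, an RNA-binding protein of fetal tissues, had 0 kb against 20.8 kb. CARM1, an arginine methyltransferase, had 0 kb in SKMEL-147 against 21.6 kb in A375-GFP, while its open length was 5.29 kb in SKMEL-147 and 6.90 kb in A375-GFP.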
